A study of Mus musculus with 32 samples.

Results

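Ankrd1, Ankrd2, Ankrd23 and Csrp3, a group of 4 genes among the 33397 in the deposited table, were followed in gastrocnemius (GAS) muscle through 28 d after the sciatic nerve was cut. The members were selected by gene symbol, and Ankrd1 was chosen for its large rise in these same samples, so its difference from 0 d is given as a description with no test. The GAS muscle was taken from male mice aged 6 to 8 weeks, C57BL/6 by the labels and C57BL/6J in the study's methods, in which a piece of the left sciatic nerve had been removed. Groups were 0, 1, 3, 5, 7, 14, 21 and 28 d, with 4 muscles each and 32 in all, and the labels give them no other difference than the time. The labels list the same nerve transection for the 0 d group, whose columns are named as controls, and the study describes sham mice that had the surgery without the cut. No group carried a genetic change or a drug beyond the anaesthetic and analgesic of the surgery. Samples of a group are called a to d in the order of their columns, as names only, and nothing in the labels ties a column to an individual animal, so the p-values measure the spread between these samples.

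The sarcomere, the contractile unit of muscle, holds titin, a giant elastic protein that runs from the Z-disc to the M-band. The proteins of Ankrd1, Ankrd2 and Ankrd23 are the muscle ankyrin repeat proteins. They bind titin in its springy I-band part together with myopalladin and calpain 3, can also be found in the nucleus, and are known for their response to stretch and load. Csrp3 encodes muscle LIM protein, which sits at the Z-disc with telethonin and alpha-actinin, moves between cytoplasm and nucleus, and is needed for normal heart muscle. Ankrd2 and Csrp3 are known as genes of slow fibres, whereas Ankrd1 is best known from the heart.

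All members lie on the GRCm38 assembly as protein-coding genes. Ankrd1 (ENSMUSG00000024803, chr19:36111961-36120099, minus strand) and Ankrd2 (ENSMUSG00000025172, chr19:42036000-42045110, plus strand) share chromosome 19, Ankrd23 (ENSMUSG00000067653) lies at chr1:36530188-36536883 on the minus strand, and Csrp3 (ENSMUSG00000030470) at chr7:48830398-48848033 on the minus strand. In the annotation, 2109 of the 2697 exon bases of Ankrd23 are shared with Gm42417 on the same strand, a gene not analysed here, so the level of Ankrd23 is uncertain. The promoter windows below are shown because all members were above 0 d from 3 d on, while their courses before and after differed. They are RefSeq sequences of GRCm38.p6, reading 5′ to 3′ on the gene's strand from 250 bases before to 50 bases after a start site, 300 bases each, and all 4 members matched by symbol, with 6 windows. Capitals mark each match to the MCAT element, the site that TEAD factors bind, which was searched as CATTCC on both strands (GGAATG where the match is on the other strand).
Ankrd1, chr19:36119795-36120094, minus strand: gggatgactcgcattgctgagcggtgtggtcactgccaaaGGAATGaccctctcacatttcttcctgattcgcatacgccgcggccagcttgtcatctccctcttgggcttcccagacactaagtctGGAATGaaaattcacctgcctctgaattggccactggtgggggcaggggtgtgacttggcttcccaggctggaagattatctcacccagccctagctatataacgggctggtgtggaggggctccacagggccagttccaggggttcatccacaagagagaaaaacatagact
Ankrd2, chr19:42035777-42036076, plus strand: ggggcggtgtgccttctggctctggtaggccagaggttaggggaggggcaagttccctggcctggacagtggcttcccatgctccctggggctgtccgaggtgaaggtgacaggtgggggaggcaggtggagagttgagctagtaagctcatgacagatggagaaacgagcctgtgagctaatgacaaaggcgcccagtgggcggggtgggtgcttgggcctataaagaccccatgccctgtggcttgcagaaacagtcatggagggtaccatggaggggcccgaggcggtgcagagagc
Ankrd23, chr1:36536507-36536806, minus strand: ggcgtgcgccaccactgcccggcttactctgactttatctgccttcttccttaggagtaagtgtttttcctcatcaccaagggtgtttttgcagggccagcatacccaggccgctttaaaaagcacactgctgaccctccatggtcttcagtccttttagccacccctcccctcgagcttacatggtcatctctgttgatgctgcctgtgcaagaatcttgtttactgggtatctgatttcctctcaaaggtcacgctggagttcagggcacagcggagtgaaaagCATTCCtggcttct
Ankrd23, chr1:36535690-36535989, minus strand: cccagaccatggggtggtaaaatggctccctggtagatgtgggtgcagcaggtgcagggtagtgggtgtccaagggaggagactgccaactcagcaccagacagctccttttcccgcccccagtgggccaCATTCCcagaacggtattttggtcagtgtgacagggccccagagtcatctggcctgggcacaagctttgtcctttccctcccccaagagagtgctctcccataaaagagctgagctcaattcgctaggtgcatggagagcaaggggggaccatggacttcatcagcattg
Csrp3, chr7:48848002-48848301, minus strand: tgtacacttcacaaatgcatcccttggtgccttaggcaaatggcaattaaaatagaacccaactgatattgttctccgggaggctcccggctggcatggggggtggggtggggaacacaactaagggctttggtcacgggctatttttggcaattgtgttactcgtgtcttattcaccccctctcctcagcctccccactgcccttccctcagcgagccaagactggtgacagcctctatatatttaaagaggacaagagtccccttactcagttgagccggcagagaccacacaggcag
Csrp3, chr7:48843622-48843921, minus strand: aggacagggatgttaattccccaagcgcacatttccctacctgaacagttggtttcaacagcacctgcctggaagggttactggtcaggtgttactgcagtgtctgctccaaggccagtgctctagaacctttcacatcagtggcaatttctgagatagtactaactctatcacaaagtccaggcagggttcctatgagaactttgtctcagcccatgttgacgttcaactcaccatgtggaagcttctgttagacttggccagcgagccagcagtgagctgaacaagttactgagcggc

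The Ankrd1 window held 2 MCAT matches, at -210 and -123 bases from the start, both on the opposite strand. Each Ankrd23 window held 1, at 36 and at -120, and neither the Ankrd2 window nor the Csrp3 windows held any. An MCAT match was present in 14.7% of the 32851 promoter windows of this length. E-boxes, the letters CANNTG bound by myogenic factors, numbered 1 for Ankrd1, 3 for Ankrd2, 2 in the second Ankrd23 window and 5 and 4 in the Csrp3 windows, against at least 1 in 72.3% of all windows. A TATAAA run stood 29 bases before the Ankrd2 start (13.6% of windows hold this run), and no member held the MEF2 core TAAAAATA (2.72% of windows) or the AP-1 site TGANTCA (7.81%). The searched motifs do not contain one another. These matches describe letters only, and whether any of them is used was not tested.

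The values are FPKM, that is fragments scaled by gene length and by the mapped fragments of the library. Differences were tested with limma on log2(FPKM + 1) across the 22071 genes whose FPKM reached 0.1 in 4 or more samples. A gene was called when its adjusted p was under 0.05 and its difference at least 1.5-fold on that scale, which understates the change of low genes. Whole muscle was sequenced, so fewer cells of a type and less RNA per cell cannot be told apart. The 32 libraries held 14199901 to 17561584 fragments as worked back from the values, with a median of 16663160. On the leading principal component, which carried 41.3% of the variance, 3 d sample a lay at -20.3 while the other 3 d samples lay between 0.183 and 5.96. All 8 genes of the denervation check (such as Chrng, the fetal acetylcholine receptor subunit, and Myog, a muscle differentiation factor) were called higher at 3 d and at 28 d, when 13.2% and 14.2% of all genes tested were. The extraction protocol in the labels speaks of retinas, but the summed FPKM of 7 retina genes was 0.0772 to 0.547 over all samples, against 20627 to 42640 for 7 muscle fibre genes. The median gene with mean FPKM of at least 1 lay 0.12 to 0.32 above 0 d on the log2 scale, and median-ratio scaling of the samples removed that shift.

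**Figure D1:**
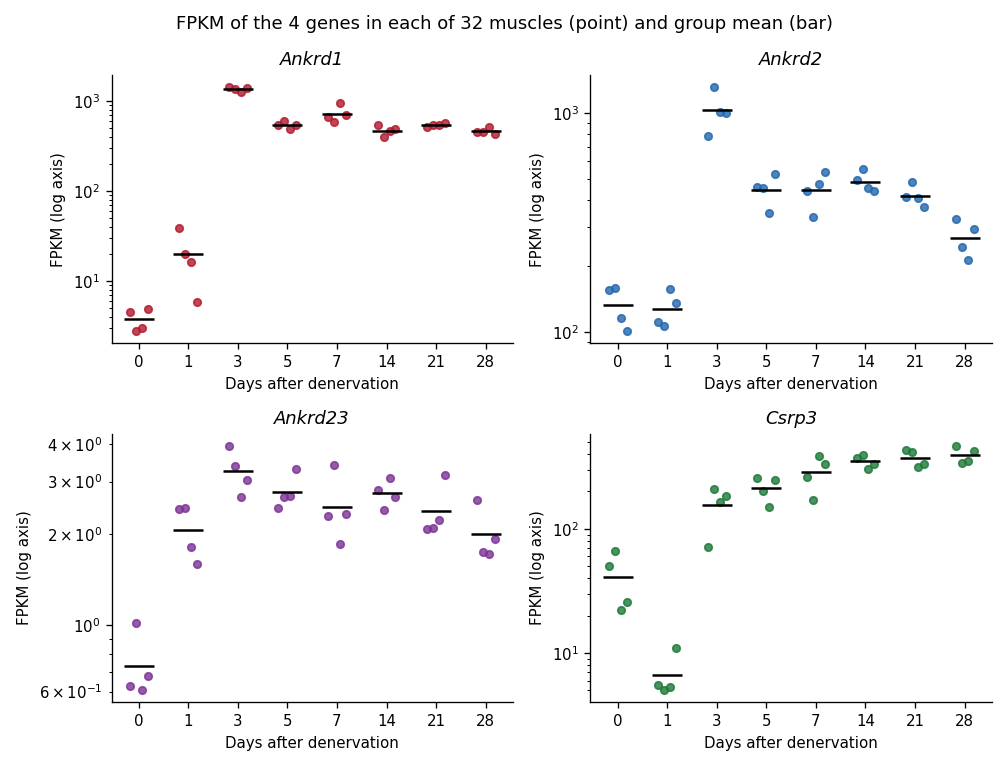
FPKM (log axis) of Ankrd1, Ankrd2, Ankrd23 and Csrp3 against days after denervation, with 1 point for each of the 4 muscles a day and a bar at the group mean. Ankrd1 and Ankrd2 were highest at 3 d, whereas Csrp3 was lowest at 1 d and its mean was highest at 28 d.

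Ankrd1, the cardiac ankyrin repeat protein, went from a modest level to a place among the most abundant mRNAs of the GAS within 3 d. At 0 d its FPKM was 4.59, 2.79, 3.02 and 4.95 in samples a to d, resting on 120 to 227 fragments. At 1 d it was 38.9, 19.9, 16.3 and 5.94, and at 3 d 1431, 1376, 1248 and 1387. The 1 d samples were spread widely (SD 13.8 around a mean of 20.3, n = 4), all above the 0 d samples, while the 3 d samples lay close together (SD 5.77% of the mean) and far above both. By mean level Ankrd1 stood at place 6517 among all genes at 0 d, place 1909 on day 1 and place 24 on day 3. The mean rose from 3.84 ± 1.09 to 1360 ± 78.6 FPKM (SD, n = 4), a ratio of 355, and the difference of 8.16 ± 0.28 (SE, log2 scale) was the highest of all genes tested at 3 d. Since Ankrd1 was chosen for this rise, no p is given for it, and for orientation 13.2% of the genes tested were called higher at 3 d.

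After 3 d Ankrd1 was lower, and stayed far above 0 d. At 5 d its FPKM was 548, 594, 491 and 539, and at 7 d it was 658, 584, 948 and 696. The samples at 14 d had 540, 395, 459 and 489. Every sample at 5 d lay below every sample at 3 d, and 7 d sample c stood above the rest of its group. FPKM was 518, 542, 538 and 564 at 21 d, and 451, 448, 509 and 430 at 28 d. The ordering of the group means from 28 d through 14 d, 21 d and 5 d to 7 d had overlapping neighbours throughout, and 3 d stood apart above them. In order of time, all 14 d samples lay below all 7 d samples (a step of -0.60 ± 0.28, limma adjusted p = 0.332, exact permutation p = 0.0286), and all 28 d samples below all 21 d samples (-0.24 ± 0.28, limma adjusted p = 0.865, exact permutation p = 0.0286). The step from 3 d to 5 d was -1.32 ± 0.28 on the log2 scale and is given without a test, since it rests on the 3 d samples whose level made the gene stand out. From 5 d on no step to the next group was called. At 28 d the mean was still 120 times that at 0 d, at place 59 among all genes.

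Ankrd2 started high and rose later and less. FPKM at 0 d was 155, 158, 115 and 101, and at 1 d it was 111, 107, 157 and 136. The groups overlapped, with a difference of -0.04 ± 0.17 on the log2 scale (limma adjusted p = 0.914, exact permutation p = 0.8), and at 1 d 6.34% of the genes tested were called higher and 2.49% lower. At 3 d FPKM was 779, 1310, 1010 and 998, each above every earlier sample. The mean was 7.74 times that at 0 d and the difference 2.95 ± 0.17 (limma adjusted p = 2.95e-14, exact permutation p = 0.0286, two-sided, the smallest that 4 against 4 samples can give). It placed Ankrd2 at 56 from the top of the 22071 genes and raised its level from place 263 to place 29.

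From 5 d the level of Ankrd2 was lower than at 3 d and above 0 d. FPKM at 5 d was 460, 452, 348 and 526, and at 7 d it was 441, 334, 472 and 536. Values at 14 d were 494, 552, 451 and 441. These groups overlapped with each other, and the step from 3 d to 5 d was -1.19 ± 0.17 on the log2 scale (limma adjusted p = 6.87e-06), where 5.76% of genes were called in either direction. At 21 d FPKM was 412, 482, 406 and 371, and at 28 d it was 327, 243, 213 and 295. All 28 d samples lay below all 21 d samples and above all 0 d samples. The step from 21 d to 28 d was -0.64 ± 0.17 (limma adjusted p = 0.116, so not called, exact permutation p = 0.0286), where 0.199% of genes were called. Against 14 d, a comparison added after the values were seen, 28 d was lower by -0.86 ± 0.17 (limma adjusted p = 0.00325), with 0.983% of genes called. Relative to 0 d Ankrd2 was called higher at every time from 3 d on, by 1.67 to 1.88 between 5 and 21 d and by 1.03 at 28 d (limma adjusted p = 1.45e-05).

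Ankrd23, the least abundant of the titin-linked genes, was already higher at 1 d. Its FPKM was 0.626, 1.02, 0.607 and 0.677 at 0 d, from 25 to 41 fragments. At 1 d it was 2.43, 2.46, 1.82 and 1.59, and at 3 d 3.95, 3.39, 2.66 and 3.03. The groups at 0, 1 and 3 d did not overlap. The difference from 0 d was 0.82 ± 0.13 at 1 d (limma adjusted p = 9.71e-06) and 1.30 ± 0.13 at 3 d (limma adjusted p = 1.64e-09), each with an exact permutation p of 0.0286. The samples at 5 d ranged from 2.45 to 3.30, at 7 d from 1.85 to 3.40 and at 14 d from 2.41 to 3.09. At 21 d the range was 2.09 to 3.16 and at 28 d 1.73 to 2.61. From 1 d on only the ranges at 1 and 3 d, and at 3 and 28 d, were wholly apart, and all samples after 0 d lay above all 0 d samples. The samples after 0 d held 71 to 163 fragments of Ankrd23, so counting error limits what its smaller steps can show. The step from 1 d to 3 d was 0.47 ± 0.13 (limma adjusted p = 0.00523), under the 1.5-fold needed for a call, and 10.6% of the genes tested were called in that step.

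Csrp3 fell before it rose. FPKM at 0 d was 50.5, 66.3, 22.3 and 25.6, and at 1 d it was 5.56, 5.04, 5.37 and 10.9. Every 1 d sample was below every 0 d sample. The difference was -2.37 ± 0.31 on the log2 scale (limma adjusted p = 6.31e-07, exact permutation p = 0.0286), the fifth lowest of the 22071 genes tested, and the place of Csrp3 by level went from 881 to 4983. At 3 d FPKM was 71.7, 210, 163 and 182, where sample a, the library that stood apart, was the lowest. The step from 1 d to 3 d was 4.31 ± 0.31 (limma adjusted p = 7.46e-12), the third highest of all genes, behind Ankrd1 at the top with 6.26, and Ankrd2 took place 19 with 2.99. Compared with 0 d, Csrp3 was higher at 3 d by 1.94 ± 0.31 (limma adjusted p = 6.99e-06), and by 2.27 without 3 d sample a.

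The rise of Csrp3 did not turn back within 28 d. FPKM at 5 d was 257, 203, 151 and 246, and at 7 d it was 261, 169, 385 and 333. At 14 d it was 374, 393, 301 and 332. All of these lay above all 0 d samples, and neighbouring groups overlapped. FPKM was 433, 412, 316 and 332 at 21 d and 466, 339, 353 and 424 at 28 d. The means went from 157 ± 60.0 at 3 d to 396 ± 59.8 at 28 d (SD, n = 4), each time above the group before it, but none of the steps from 3 d on was called on its own. At 28 d the mean was 9.60 times that at 0 d, with a difference of 3.36 ± 0.31 (limma adjusted p = 4.8e-10), and Csrp3 stood at place 74 among all genes.

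**Figure D2:**
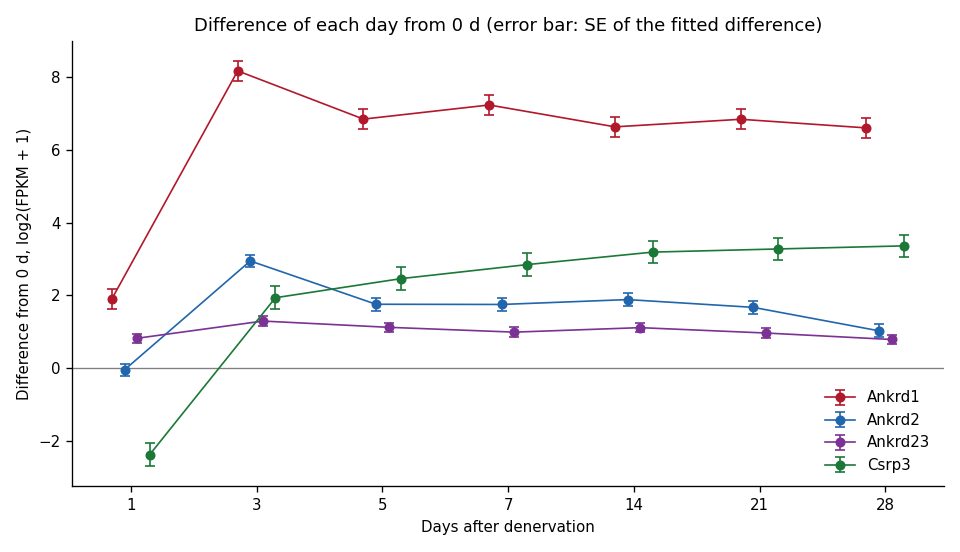
Difference of each day from 0 d on the log2(FPKM + 1) scale for the 4 genes, with the SE of the fitted difference as error bars. Ankrd1 reached 8.16 at 3 d, Ankrd2 and Ankrd23 were also highest at 3 d, and Csrp3 went from -2.37 at 1 d to 3.36 at 28 d.

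Ankrd2, Ankrd23 and Csrp3 were each called higher in every comparison with 0 d from 3 d on, and Ankrd1, which was chosen for its rise, is not counted. The share of all tested genes called higher was 14.9% on day 5, 15.4% on day 7, 14.6% on day 14, 11.8% on day 21 and 14.2% on day 28. With median-ratio scaling the genes called at 28 d were 1450 higher and 1789 lower, in place of 3143 and 906, and Ankrd2, Ankrd23 and Csrp3 were called higher at every time from 3 d on under that scaling too. With quantile scaling Ankrd23 at 28 d was not called (0.56, under 1.5-fold). At 1 d, Ankrd23 was called higher, Csrp3 was called lower and Ankrd2 was not called. None of the members, Ankrd1 included, was called in the steps from 5 to 7 d (0.657% of genes called), 7 to 14 d (0.634%) or 14 to 21 d (0.453%). All of the comparisons with 0 d share the same 4 control samples.

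The make-up of the titin-linked trio changed along with its amount. The summed FPKM of Ankrd1, Ankrd2 and Ankrd23 averaged 137 ± 28.5 at 0 d, 2388 ± 214 at 3 d and 731 ± 36.2 at 28 d (SD, n = 4). FPKM is scaled by gene length, so levels can be set side by side only as far as that length fits the transcripts present. The merged exons of all annotated transcripts span 2886 bases for Ankrd1, 1138 for Ankrd2 and 2671 for Csrp3. At 0 d Ankrd2 made up 94.7 to 97.7% of the sum and Ankrd1 1.72 to 4.66%. Ankrd1 made up 4.15 to 25.5% at 1 d and 51.2 to 64.6% at 3 d. Its share lay between 41.6 and 66.7% from 5 to 21 d, and was 57.8 to 70.3% at 28 d. Among samples after 1 d, 14 d sample b had the lowest Ankrd1 share, and it was the sample with the lowest Ankrd1 and the highest Ankrd2 of its group. Ankrd23 gave no more than 1.91% in any sample.

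Csrp3 and Ankrd2, the members known from slow fibres, moved apart. The ratio of Csrp3 to Ankrd2 FPKM was 0.194 to 0.419 at 0 d and 0.0342 to 0.0803 at 1 d. It was 0.0920 to 0.182 at 3 d, below all 0 d samples. At 28 d it was 1.39 to 1.66, above every other group, since Csrp3 kept its level while Ankrd2 was lower.

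**Figure D3:**
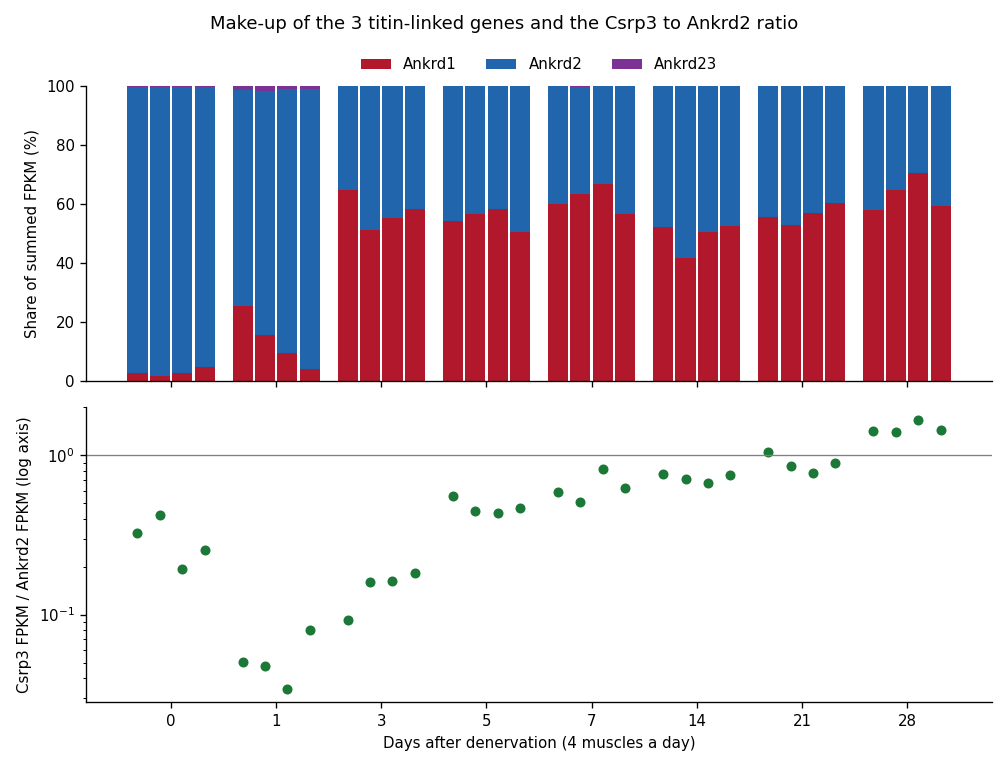
Upper panel, share (%) of Ankrd1, Ankrd2 and Ankrd23 in their summed FPKM for each of the 32 muscles in order of days after denervation. Lower panel, FPKM of Csrp3 divided by FPKM of Ankrd2 (log axis) in the same muscles. Ankrd2 made up at least 94.7% of the sum at 0 d, and the ratio passed 1 in all samples at 28 d.

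The slow fibre genes, 10 genes of slow myosin, troponin and calcium handling, were not higher along with Csrp3 and Ankrd2 at 3 to 14 d. At 1 d 9 of 10 were called lower and none higher (median difference -1.40, against 0.03 over all genes tested, of which 2.49% were lower). At 3 d 7 were lower and none higher (median -1.29, all genes 0.06), with 0 higher and 2, 3 and 1 lower at 5, 7 and 14 d. At 21 d 2 were higher and 2 lower, the medians from 5 to 21 d were -0.43 to -0.25, and at 28 d 8 were higher and none lower (median 1.28, all genes 0.14, with 14.2% higher). Of all 22071 genes tested, 852, 905, 845 and 867 were called lower at 5, 7, 14 and 21 d, and 11.8% were higher at 21 d. The list was chosen with results of these samples known, and for orientation 6.03% of genes were called lower at 3 d. Myh7, the slow myosin heavy chain, went from 30.7 ± 11.3 to 3.84 ± 1.88 FPKM at 3 d (-2.75, limma adjusted p = 1.41e-05), and Myl3, a slow myosin light chain, from 194 ± 89.7 to 27.0 ± 9.65 (-2.77, limma adjusted p = 1.1e-06). At 28 d Tnnt1, slow troponin T, was at 380 ± 88.1 FPKM against 82.9 ± 41.0 at 0 d (2.27, limma adjusted p = 4.29e-06), and Tnni1, slow troponin I, was higher by 2.18 (limma adjusted p = 2.63e-05). Thus at 1 d Csrp3 and the slow fibre genes were both low, at 3 d Csrp3 was above and the slow fibre genes below their 0 d levels, and at 28 d both were high. The summed FPKM of the list was 488 to 1321 at 0 d, 118 to 285 at 3 d and 1456 to 2545 at 28 d. Within 0 d, samples a and b had the higher values of both Csrp3 and the slow fibre sum. Within 3 d, sample a had the lowest of both. On 14 d, sample b had the highest and sample c the lowest of both, on 21 d samples a and b had the higher values of both, and on 28 d sample a had the highest of both. The order was mixed at 5 and 28 d and opposite at 1 and 7 d. At 28 d sample b had the lowest Csrp3 (339) with a slow fibre sum of 2107. In the same group sample d had the lowest sum (1456) with Csrp3 at 424. At 1 d sample d had the highest Csrp3 (10.9) and the lowest slow fibre sum (212), and at 7 d sample b had the lowest Csrp3 (169) with the highest sum (925), while sample c had the highest Csrp3 (385) with the lowest sum (304.5). The part of fibre makeup in the level of Csrp3 was not tested.

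**Figure D4:**
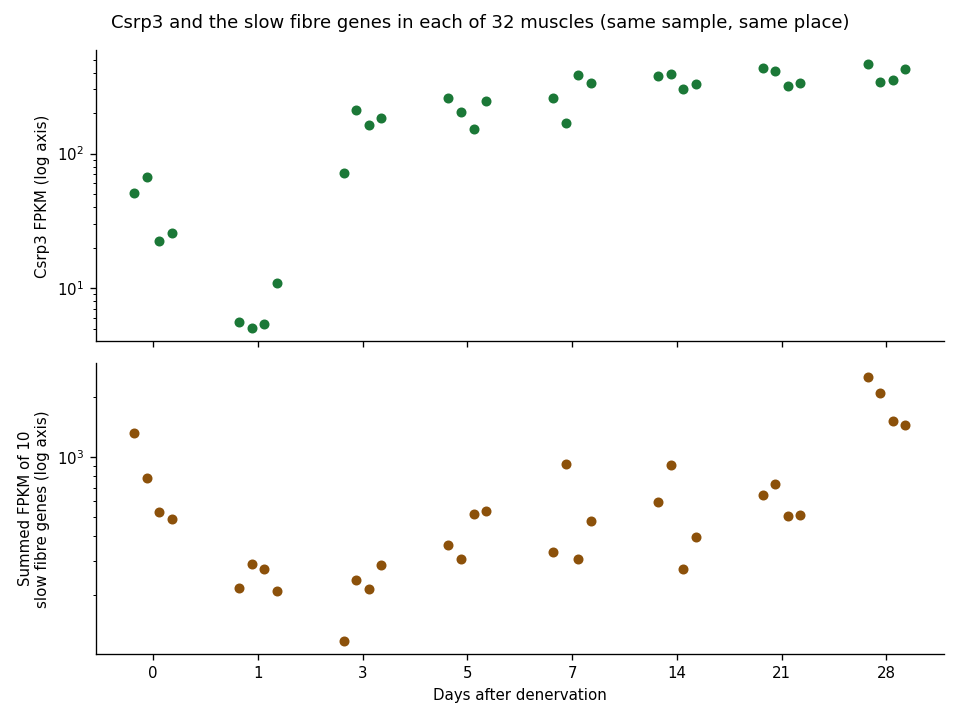
FPKM of Csrp3 (upper panel) and summed FPKM of 10 slow fibre genes (lower panel), both on log axes, in each of the 32 muscles by days after denervation, with each muscle at the same horizontal place in both panels. At 3 d Csrp3 was at 71.7 to 210 FPKM, above 0 d, and the slow fibre sum at 118 to 285, below 0 d.

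Among titin and its partners in the I-band, 5 of 10 genes were called higher and 2 lower at 3 d, and 5 higher and 2 lower at 28 d, with a median difference of 0.43 at both times, against 0.06 and 0.14 over all genes tested, of which 13.2% and 14.2% were higher and 6.03% and 4.1% lower. Cryab, the small heat shock protein alpha-B crystallin, rose from 397 ± 73.1 to 1967 ± 271 FPKM at 3 d (2.31, limma adjusted p = 1.11e-15), and Mypn, myopalladin, the partner of the ankyrin repeat proteins, rose by 0.87 (limma adjusted p = 1.2e-08). Capn3, the muscle calpain on titin, fell from 32.5 ± 0.961 to 10.9 ± 0.587 FPKM (-1.50, limma adjusted p = 5.8e-18), and Palld, palladin, fell by 0.61 on the log2 scale (limma adjusted p = 4.97e-05). At 28 d the LIM proteins Fhl2 (1.88) and Fhl1 (1.68) had the greatest rises of the list, while Capn3 (-1.02) and the methyltransferase Smyd2 (-0.71) were lower. Ttn itself, titin, was not called, with 0.12 at 3 d (limma adjusted p = 0.498). With median-ratio scaling the list had 3 higher genes at 3 d and 2 at 28 d, and leaving out 0 d sample c or 3 d sample a left 1 lower gene at 3 d. Over all genes tested, those higher at 28 d went from 3143 to 1450 with median-ratio scaling.

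At the Z-disc, where Csrp3 resides, 6 of 18 genes tested were called higher and 3 lower at 3 d (median -0.05), and 4 higher and 3 lower at 28 d (median 0.34). Of the 19 listed genes 1 was below the filter, and over all genes 13.2% were higher and 6.03% lower at 3 d (median 0.06), and 14.2% higher at 28 d (median 0.14). Flnc, filamin C, was at 74.5 ± 6.48 FPKM at 0 d and 581 ± 34.4 at 3 d (2.95, limma adjusted p = 2.88e-20), and Pdlim3, a PDZ and LIM protein bound to alpha-actinin, rose by 2.58 at 3 d and 1.72 at 28 d. Myoz1 and Myoz3, the calsarcins of fast fibres, fell by 1.81 and 3.11 at 3 d and by 2.01 and 2.25 at 28 d, and 4.1% of the genes tested were called lower at 28 d. Tcap, telethonin, the direct partner of Csrp3, was called lower at 1 d (-0.65, limma adjusted p = 1.23e-07), the day on which Csrp3 was lowest, and differed by -0.39 at 3 d and 0.33 at 28 d, both under the fold needed for a call. At 1 d 3 genes of the list were called higher and 4 lower, Tcap included (median -0.15). Over all genes tested 6.34% were higher and 2.49% lower at 1 d (median 0.03). Under median-ratio scaling 5 genes were lower at 3 d and 2 were higher at 28 d. Over all genes tested, those lower at 3 d went from 1330 to 2020 and those higher at 28 d from 3143 to 1450.

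For the M-band end of titin 4 of 11 genes were called higher and none lower at 3 d (median 0.31), and 4 higher and 2 lower at 28 d (median -0.23). Over all genes tested 13.2% were higher and 6.03% lower at 3 d (median 0.06), and 14.2% and 4.1% at 28 d (median 0.14). Trim63, the ubiquitin ligase MuRF1 that binds titin there, was at 91.4 ± 13.3 FPKM at 0 d, 1264 ± 219 at 3 d and 54.4 ± 5.42 at 28 d. Its difference from 0 d was 3.77 at 3 d (limma adjusted p = 9.24e-19) and -0.73 at 28 d (limma adjusted p = 5.63e-05), so that unlike the members it was below its 0 d level at the end. Sqstm1, the autophagy receptor p62, rose by 1.58 at 3 d. Myom3, a myomesin of slow and intermediate fibres, was at 12.6 ± 3.58 FPKM at 0 d and 146 ± 12.8 at 28 d (3.47, limma adjusted p = 2e-13), Obsl1 was higher by 2.14, and Myom2, the fast fibre myomesin, fell by 1.42. With median-ratio scaling 6 genes were lower at 28 d, and without 3 d sample a 1 was lower at 3 d. Over all genes tested, those lower at 28 d went from 906 to 1789 with median-ratio scaling.

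Ankrd1 is also widely used as a readout of YAP, the co-activator that the Hippo pathway holds out of the nucleus and that acts through TEAD factors. Of 17 regulators of this pathway 4 were called higher and 1 lower at 3 d (median 0.28), and 3 higher and 1 lower at 28 d (median 0.20). Over all genes tested the shares were 13.2% higher and 6.03% lower at 3 d, and 14.2% and 4.1% at 28 d, with medians of 0.06 and 0.14, and the counts at 28 d lie near them. Tead4, a TEAD factor, went from 2.71 ± 0.421 to 8.57 ± 0.647 FPKM at 3 d (1.37, limma adjusted p = 5.83e-13) and was higher by 1.66 at 28 d. Wwtr1, the YAP relative TAZ, was higher by 0.66 at 3 d, Stk4, a Hippo kinase, by 0.70 at 28 d, and Vgll4, a TEAD co-factor, fell by 0.86 and 0.68. The counts of higher genes in this list went to 1 at each time under median-ratio scaling and to 7 at 3 d with TPM. Over all genes tested, those higher went from 3143 to 1450 at 28 d with median-ratio scaling and from 2924 to 4961 at 3 d with TPM. Of 21 genes of a YAP target list without Ankrd1, 6 were higher and 1 lower at both times, with medians of 0.29 and 0.24, beside 13.2% and 14.2% of all genes higher. Gadd45a, a stress-induced gene of growth arrest, went from 3.95 ± 1.69 to 198 ± 13.2 FPKM at 3 d (5.39, limma adjusted p = 1.42e-20), Ccn1, a matricellular protein, from 13.4 ± 0.536 to 88.7 ± 33.6 (2.54, limma adjusted p = 1.02e-11), and Crim1 fell by 1.03. Ccn2, a relative of Ccn1, was also called higher (named after its values were seen), by 1.83 at 3 d and 1.51 at 28 d.

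Embryonic and cardiac muscle genes had 3 of 7 tested genes higher and 1 lower at 3 d, and 4 higher and none lower at 28 d, with medians of 0.18 and 2.50. Over all genes 13.2% were higher and 6.03% lower at 3 d (median 0.06), and 14.2% higher and 4.1% lower at 28 d (median 0.14). Myh3, the embryonic myosin heavy chain, went from 0.803 ± 0.367 to 47.3 ± 27.5 FPKM at 3 d (4.56, limma adjusted p = 5.33e-14), Myl4, the atrial light chain, rose by 2.11, and Tnnt2, cardiac troponin T, by 3.21 at 28 d. Actc1, cardiac actin, fell by 1.84 at 3 d. Nppb, a natriuretic peptide of the heart, was not called, at 0.0605 FPKM at 0 d and 0.0983 at 3 d, and Nppa was below the filter at 0.0182 and 0.0178.

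**Figure D5:**
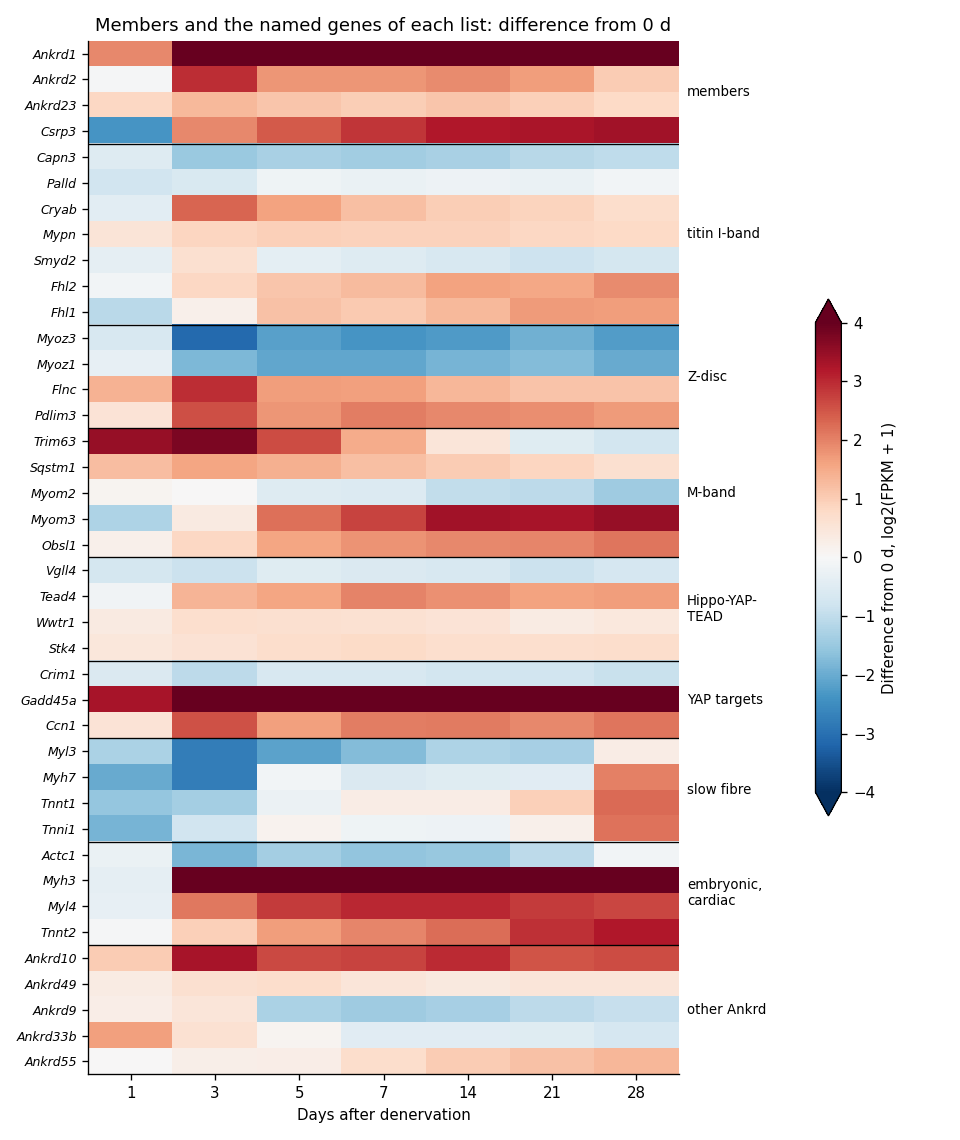
Difference from 0 d on the log2(FPKM + 1) scale (colour, with values beyond 4 in either direction shown at the end of the scale) for the 4 members and the named genes of each list, by days after denervation. Among the I-band, Z-disc and M-band genes some rose and some fell, while Ankrd1, Ankrd2, Ankrd23 and Csrp3 were higher at every day from 3 d on. The list genes shown were picked as the most changed called genes in either direction, and Ankrd1 was chosen for its rise.

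Likeness was measured as Pearson's r of log2(FPKM + 1) over the 32 samples among 11943 genes with mean FPKM of at least 1. It is a description, since samples of a group share their time. Closest to Ankrd1 were Hspb8 (r = 0.985), a small heat shock protein of muscle that rose from 231 FPKM at 0 d to 2170 at 3 d and was at 1391 at 28 d, and Cct5 (0.978), a chaperonin subunit. Next came Tekt1 (0.973), Ankrd10 (0.972) and the ribosomal gene Rpl11 (0.969). Closest to Ankrd2 were Cryab (0.953) and the antioxidant enzyme Prdx6 (0.951), then Gm10123 (0.925), Klhl40 (0.921) and Slc9a7 (0.921). Cryab shared with Ankrd2 the peak at 3 d and the lower level at 28 d, when it was at 637 FPKM.

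The genes nearest to Ankrd23 were the co-chaperone Dnajb2 (0.911), Bsdc1 (0.900), Pus1 (0.897), Xbp1 (0.895), a factor of the unfolded protein response, and Nsfl1c (0.891), each already higher in mean at 1 d. Those nearest to Csrp3 were Hspb3 (0.960), a small heat shock protein, Wfs1 (0.957), the cell cycle kinase Wee1 (0.954), Fhl1 (0.952) and Smpx (0.950), a small muscle protein. All of these had a lower mean at 1 d than at 0 d, as Csrp3 did. Fhl1 was at 490 FPKM at 0 d, 222 at 1 d and 1491 at 28 d. Among the members r was 0.867 for Ankrd1 with Ankrd2, 0.795 for Ankrd1 with Ankrd23 and 0.774 for Ankrd1 with Csrp3. It was 0.703 for Ankrd2 with Ankrd23, 0.693 for Ankrd2 with Csrp3 and 0.370 for Ankrd23 with Csrp3. Ankrd2 came at place 578 and Csrp3 at place 1423 in the order of likeness to Ankrd1.

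Markers of other cells moved over the same days. The summed FPKM of 7 muscle fibre genes was 39078 to 42640 at 0 d, 20627 to 24449 at 3 d and 24686 to 27671 at 28 d, so the members rose in libraries in which this sum was lower. Of the 7 genes 4 were called lower and none higher at 3 d, and 5 lower and 1 higher at 28 d. Over all genes tested 6.03% were lower at 3 d and 4.1% at 28 d. Of 6 macrophage markers 5 were called higher at 3 d and 6 at 28 d (13.2% and 14.2% of all genes tested were), with sums of 46.0 to 67.7 at 0 d, 184 to 368 at 3 d and 144 to 163 at 28 d. Neutrophil markers summed to 1.11 to 1.77 at 0 d and 6.52 to 89.6 at 1 d. Schwann cell markers summed to 64.6 to 142 at 0 d and 12.7 to 35.7 at 3 d, although 1 of 5 was called higher and 2 lower at 3 d and the median difference was 0.53. Over all genes tested 13.2% were higher and 6.03% lower at 3 d (median 0.06). Sums at 0 d and 3 d were, for endothelial markers, 95.6 to 106 and 58.9 to 80.8, for smooth muscle and pericyte markers 190 to 204 and 104 to 142, for fibro-adipogenic markers 454 to 592 and 313 to 724, and for satellite cell markers 5.88 to 7.35 and 4.63 to 5.50. At 28 d the satellite cell markers summed to 8.67 to 10.5, above all 0 d samples, with 1 of 5 called higher, a share near that of all genes. No marker of these lists was at 0 in all 32 samples. The part of these cells in the levels of the members was not tested.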

How the data were processed

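RNA from 32 GAS muscles was sequenced by the authors as paired reads of 150 bp. The authors deposited 1 table of FPKM values for 33397 genes. Per the submitters' processing notes, CASAVA, HISAT2 2.1.0, GRCm38 and, by the authors, DESeq2 were used. The counter, the annotation and the strand setting are not given in the sources used here. Symbols for 33356 genes were taken from GENCODE M21. Low FPKM values were whole multiples of 1 fragment in 99.3 to 99.4% of cases (tolerance 0.05 fragments), which gave the library totals. Columns were mapped to groups by name, and 0 sample columns were unused.

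All 8 groups were fitted together with limma 3.58.1 (R 4.3.3, eBayes with trend) on log2(FPKM + 1), with Benjamini-Hochberg adjustment over 22071 genes. Simulated data with 200 genes changed 2-fold in the 3 d against 0 d comparison gave back 142 (71.0%) and 1 unchanged gene. The simulation gave every gene the same spread beyond counting error, and genes with few fragments were not among those changed. Wider spreads, such as that of Ankrd1 at 1 d (SD 68.0% of the mean), were not simulated, so recovery in these data may differ. Permutation tests were exact and two-sided. Sums, motifs and figures used Python 3.11.15, pandas 2.3.3, numpy 2.4.6 and matplotlib 3.10.9.

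The members and lists were chosen with earlier results of these data known. Named were the members, up to 2 called genes a direction with the greatest difference at 3 d and at 28 d in each list, and the 5 genes with the highest r to each member. Ttn, Tcap, Ccn2, Nppa and Nppb were named after their values were seen, as were the comparison of 28 d with 14 d and the list counts at 1 d. Alternatives were a pseudocount of 0.1, other filters, TPM, median-ratio and quantile scaling, no variance trend, a fit of the compared groups alone, and each sample left out in turn.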

Additional observations from a re-analysis of the deposited data

Results flagged for a closer look

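In 3 of 32 groups of 4 samples (4 genes at 8 times) 1 sample lay far from the rest, by a test on the gap to its neighbour that chance passes in about 1 in 20 groups. Csrp3 in 1 d sample d was at 10.9 FPKM, against 5.04 to 5.56 in the other samples, and the same sample had the lowest Ankrd1 of its group at 5.94. Ankrd23 was at 1.02 FPKM in 0 d sample b, against 0.607 to 0.677 in the others, and at 3.16 in 21 d sample d, against 2.09 to 2.24. Leaving out any of these samples changed no call of a member.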

How the results depend on the processing

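Of 2240 member values under the alternatives, 2221 kept their direction and side of the call rule. Leaving out a sample from a group outside a comparison leaves its estimate unchanged, so many of these 2221 could not change direction. Of the rest, 3 became calls, 1 was lost and 15 changed sign, all of them differences near 0 that were called in neither fit. These were Ankrd2 at 1 d against 0 d (0.071 with TPM, 0.030 with quantile scaling, and -0.17 to 0.051 with a sample left out), its step from 5 d to 7 d (0.0036 with median-ratio and 0.058 with quantile scaling, and -0.12 to 0.13 with a sample left out), and Ankrd1 at 28 d against 14 d (0.020 with quantile scaling, and -0.11 to 0.040 with a sample left out). The step of Ankrd23 from 1 d to 3 d became a call at 0.64 with a pseudocount of 0.1 and at 0.62 with TPM, and that of Ankrd2 from 21 d to 28 d at -0.72 with median-ratio scaling (limma adjusted p = 0.0403). Ankrd23 at 28 d against 0 d was not called at 0.56 with quantile scaling (limma adjusted p = 0.00243, under 1.5-fold). The cause was not tested. No sample left out in turn changed a call of a member. Of 28 counts over all genes, 19 moved by over 1.5 times with a pseudocount of 0.1, 16 with median-ratio scaling, 14 with quantile scaling, 11 with TPM and 2 in fits of the compared groups alone, to between 0.448 and 2.42 times the main count. Higher genes at 3 d numbered 2924, but 4504 with a pseudocount of 0.1, 4961 with TPM and 1909 with quantile scaling. At 28 d 3143 higher and 906 lower became 1450 and 1789 with median-ratio and 1591 and 1617 with quantile scaling. Without 14 d sample a, 31 genes in place of 20 were higher at 21 d than at 14 d. In the step from 21 to 28 d, 23 in place of 35 were higher without 28 d sample a and 5 in place of 9 lower without sample b. No paired analysis was possible because the columns carry letters or numbers that are tied to no individual labelled sample. Counting error limits Ankrd23 at 0 d, where a sample held 25 to 41 fragments.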

Other observations

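Apart from the titin-linked trio, 44 genes carry a symbol of Ankrd with a number, and 33 passed the filter. At 3 d 4 were called higher and none lower, and at 28 d 6 were higher and 2 lower, with medians of 0.14 and 0.16. The share over all genes tested was 13.2% higher at 3 d, and 14.2% higher and 4.1% lower at 28 d (medians 0.06 and 0.14), so these counts lie near it. Ankrd10 went from 5.31 ± 0.665 FPKM at 0 d to 61.7 ± 6.80 at 3 d and 37.6 ± 2.65 at 28 d (SD, n = 4), by 3.31 and 2.62 on the log2 scale (limma adjusted p = 1.97e-20 and 3.87e-18). Ankrd49 was higher by 0.65 at 3 d and Ankrd55 by 1.33 at 28 d, where it was at 1.55 FPKM. Ankrd9 fell by 0.92 and Ankrd33b by 0.67 at 28 d. Under median-ratio scaling 1 was higher at 3 d and 2 were higher and 4 lower at 28 d, and 2 were higher at 3 d without 0 d sample a. Over all genes tested, median-ratio scaling gave 1450 higher and 1789 lower at 28 d, in place of 3143 and 906.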
